A study of Mus musculus with 22 samples.

Results

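The change in the transcriptome of mouse photoreceptors from postnatal day 7 (P7) to postnatal day 30 (P30) was compared between rods and cones. The comparison set 8 of the 22 libraries of the series against each other. They were 2 each from sorted retinal cells labelled rods at P7, rods at P30, cones at P7 and cones at P30. For each gene the measure was the change in rods from P7 to P30 minus the change in cones from P7 to P30, in log2 units, so that a value above 0 means that the gene rose more, or fell less, in rods. It was fitted over all genes of the table, and genes were then sorted into those that changed in opposite directions in the 2 cell types, in 1 type only, or in the same direction by different amounts. Rods and cones at P13 did not enter the contrast and show when a change took place. Like the rest of the series, they entered the gene filter and the spread behind the p-values. Per the labels, messenger RNA from sorted cells was amplified in a linear fashion before sequencing. The sources used here do not give strain, genotype, sex, the marker behind each sort or the time of day at collection, and all groups share the same RNA protocol. No label states that the libraries within a group represent different mice, so the p-values reflect only scatter between libraries, which may be technical. That scatter was pooled over all 22 libraries of the series, which include bipolar cells. In bulk samples such as these, fewer cells that express a gene and less RNA of it per cell cannot be told apart.

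Rods are the photoreceptors of dim light and cones those of daylight and colour. Both carry a light-sensing outer segment, a stack of membrane that is renewed throughout life, and both release glutamate continuously from ribbon synapses, where a protein ribbon holds vesicles at the release site. In the mouse, P7 falls before eye opening and before most outer segment growth, and P30 falls after both. Photoreceptors are known for a high rate of aerobic glycolysis, the conversion of glucose to lactate with oxygen present, beside a dense band of mitochondria in the inner segment.

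The 8 libraries held 40.8 to 54.4 Mreads (megareads) over the genes of the table. At P30, 7 cone genes (Opn1sw, Arr3, Gnat2, Pde6c, Pde6h, Gngt2 and Cnga3) were in rods at no more than 0.286% of their level in cones, and 5 rod genes (Nrl, Nr2e3, Gnat1, Pde6b and Cngb1) were in cones at 1.99% to 4.27% of their level in rods. Sag, the arrestin of rods, was in cones at 54.0% of its rod level at P7 and 96.6% at P30. The 22 genes of the rod list summed to 19599.7 to 22957 CPM in cones at P30, against 66526 to 81646 CPM in rods. Levels are given as CPM, reads per megaread of the library after the authors' scaling. Transcripts of the mitochondrial genome took 28.6% to 38.7% of reads in cones at P30, against 4.61% to 6.14% in cones at P7, 2.55% to 2.83% in rods at P7 and 6.39% to 9.88% in rods at P30. The mean number of genes with at least 1 read rose from 11745 to 12623.5 in rods and fell from 13287 to 11719 in cones. Genes of low level that rose in rods or fell in cones moved the same way as these numbers, and the part of detection in their changes was not tested.

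Of 13405 genes tested, 1422 (10.6%) had a different P7 to P30 change in rods and cones, at an adjusted p under 0.05 and a difference of at least 1 log2 unit. The difference was above 0 for 809 genes (6.04%) and below 0 for 613 genes (4.57%). Within rods, 1434 genes (10.7%) rose and 1226 (9.15%) fell from P7 to P30. Within cones, 427 (3.19%) rose and 976 (7.28%) fell. The median gene had a difference of 0.38 with a median standard error of 0.73. Scaling by plain read totals, in place of the authors' effective library sizes of 0.608 to 1.18 times those totals, gave 2110 genes above 0 and 232 below, and moved the median of all genes to 1.03. Differences in the text are on the authors' scale and are read relative to that shift. Without the first cone library at P7 the number of genes called was 616, and without the first rod library at P30 it was 837. In the 8 fits that each left out 1 library, 522 of the 1422 genes were called in every one.

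Sorted by direction, 55 genes rose in rods and fell in cones, and 12 fell in rods and rose in cones. A further 224 genes rose and 371 fell in rods while the change in cones was under 1 log2 unit and not called. In cones, 50 genes rose and 93 fell while rods changed by under 1 log2 unit with no call. Another 59 changed in the same direction in both by different amounts. The remaining 558 genes were called for the difference alone or with 1 of the 2 changes called and the other over 1 log2 unit in size. Level and direction went together: among 2969 genes with a mean log2 CPM under 0 over the 8 libraries, 408 were called above 0 and 12 below, while among 588 genes with a mean over 8 the counts were 17 and 139. Of the 809 genes above 0, 260 had no reads in rods at P7 and 269 none in cones at P30.

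**Figure D1:**
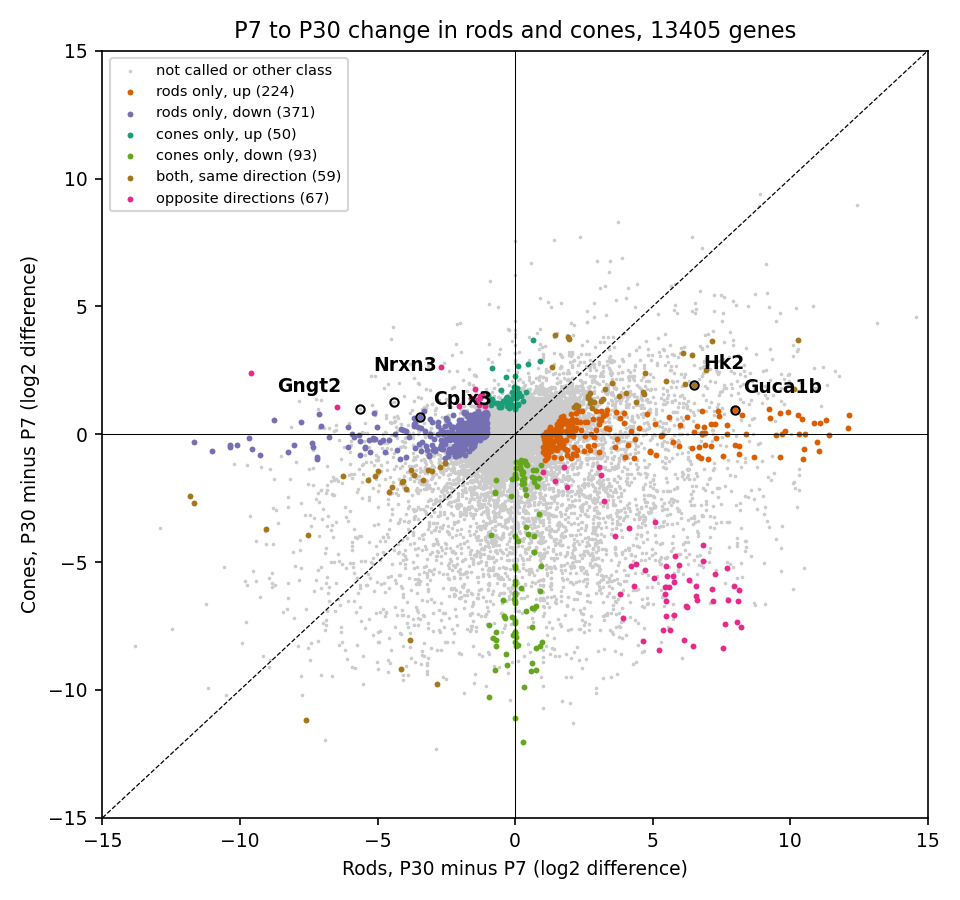
Change from P7 to P30 in rods (horizontal axis, log2 difference) against the same change in cones (vertical axis, log2 difference) for 13405 genes, 1 point a gene. Coloured points are genes whose changes differed, by class, with the number of genes in the key. Circled genes are named in the text, and the dashed line marks equal change. Most of the 67 genes with opposite changes, 55 in all, lie at the lower right.

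Hk2, Cplx3 and Nrxn3, the genes named with this comparison, followed different courses. Hk2 (hexokinase 2, ENSMUSG00000000628, chromosome 6, 82725025 to 82774454, minus strand, build GRCm38) encodes the enzyme that commits glucose to glycolysis in photoreceptors. Its level in rods was 7.84 and 4.03 CPM at P7, 48.6 and 47.5 CPM at P13 and 544 and 491 CPM at P30. In cones it was 225 and 197 CPM at P7, 349 and 385 CPM at P13 and 684 and 915 CPM at P30. Rods therefore started far below cones and came close to them by P30, when the rod libraries were still lower than both cone libraries. The rise was 6.52 ± 0.34 log2 units in rods and 1.91 ± 0.34 in cones, a difference of 4.61 ± 0.48 (adjusted p = 3.4e-05). The mean rod level went from 2.81% of the mean cone level at P7 to 64.7% at P30.

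Cplx3 (ENSMUSG00000039714, chromosome 9, 57599992 to 57606281, minus strand) encodes a complexin of ribbon synapses, a protein that clamps and promotes vesicle fusion. Rods had 251 and 284 CPM at P7 and 17.9 and 33.7 CPM at P30, and the P13 libraries lay between at 102 and 84 CPM. Cones had 511 and 418 CPM at P7 and 764 and 713 CPM at P30. Cplx3 fell 10.4-fold in rods, while the cone change of 0.67 ± 0.22 log2 units was not called, and the difference was -4.12 ± 0.31 (adjusted p = 3.3e-06).

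Nrxn3 (ENSMUSG00000066392, chromosome 12, 88722876 to 90334935, plus strand) encodes neurexin 3, a presynaptic adhesion protein. Its levels at P7 overlapped between the types, with 177 and 113 CPM in rods and 174 and 74.5 CPM in cones. At P30 rods had 14 and 3.14 CPM and cones 299.6 and 246 CPM, with no overlap. Nrxn3 fell by 16.9 times in rods, the cone change of 1.25 ± 0.53 was not called (adjusted p = 0.13), and the difference was -5.67 ± 0.75 (adjusted p = 2.9e-04).

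**Figure D2:**
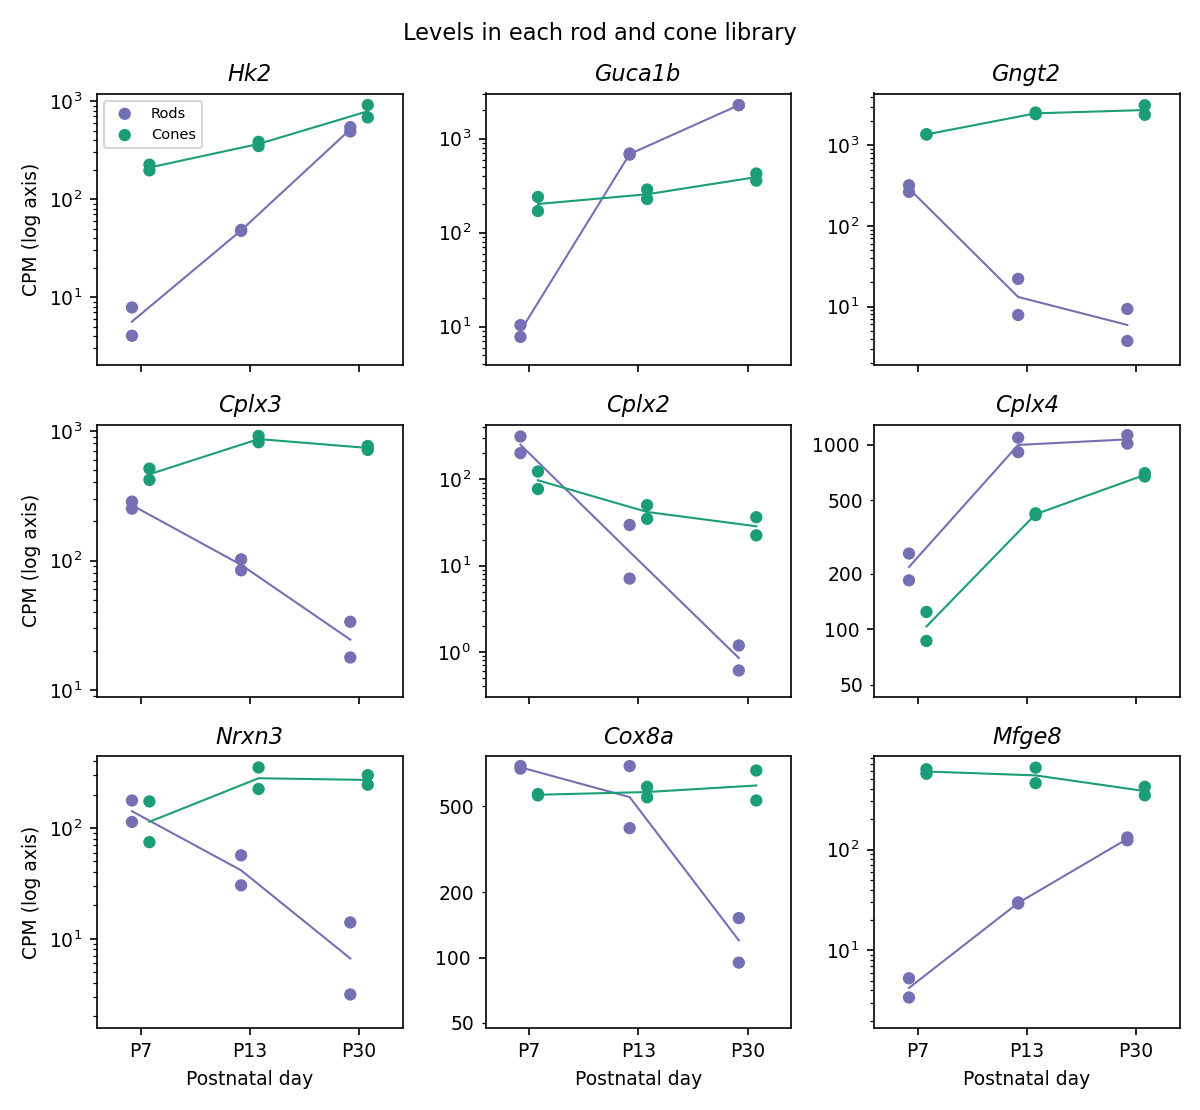
CPM (log axis) at P7, P13 and P30 in rods (purple) and cones (green) for 9 genes, 1 point a library, with lines through the geometric means of the 2 libraries. Rods and cones converge for Hk2, from 4.03 to 7.84 CPM in rods at P7, and part for Cplx3, Cplx2, Nrxn3, Gngt2 and Cox8a.

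The sequences before the start sites of Hk2, Cplx3 and Guca1a, a gene described further on, are shown as examples. They come from a longer set of genes that moved differently in the 2 photoreceptor types. Each line gives the 150 bases just upstream of the RefSeq start (GRCm38.p6), 5′ to 3′ on the gene's own strand. Capitals mark GGATTA or its reverse complement TAATCC, the core bound by CRX, the homeodomain factor of photoreceptors.
Hk2, chr6:82774455-82774604, minus strand: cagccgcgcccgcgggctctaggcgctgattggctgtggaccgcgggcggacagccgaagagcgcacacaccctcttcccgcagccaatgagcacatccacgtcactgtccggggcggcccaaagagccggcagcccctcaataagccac
Cplx3, chr9:57606282-57606431, minus strand: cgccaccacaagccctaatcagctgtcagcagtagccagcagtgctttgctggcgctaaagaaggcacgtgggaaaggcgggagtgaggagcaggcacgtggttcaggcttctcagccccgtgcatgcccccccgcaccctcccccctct
Guca1a, chr17:47400607-47400756, minus strand: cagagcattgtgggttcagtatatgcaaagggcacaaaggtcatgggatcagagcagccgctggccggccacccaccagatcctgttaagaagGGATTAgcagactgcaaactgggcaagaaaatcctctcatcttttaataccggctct
Only Guca1a of these holds the motif, with its first base at -57 from the start. The windows of Nrxn3, Gpsm2, Mfge8, Tenm4, Stmn3, Gckr, Calu and Mgarp, not shown, were searched as well, and none holds it. Searched on both strands over 250 upstream bases, each gene counted once, the motif was present for 679 of 10409 tested genes with a RefSeq promoter (6.52%). Its share was 14 of 158 (8.86%) for genes that rose in rods only, 16 of 293 (5.46%) for genes that fell in rods only, 6 of 43 (13.95%) for genes that rose in cones only and 3 of 70 (4.29%) for genes that fell in cones only. Over all 32851 windows of the promoter table it was 6.25%. These shares are descriptions of letters, with no test of binding.

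Within glycolysis, 5 of 25 genes had a difference above 0 and 2 below, where 6.04% and 4.57% of all genes did. In rods 8 of the 25 rose and 3 fell, where 10.7% and 9.15% of all genes did. In cones 6 rose and 1 fell, where 3.19% and 7.28% did. The median of all genes was 0.38, but it was -0.17 at a mean log2 CPM of 6 to 8, the range of Hk2, Pfkp and Pfkfb2. The list median was -0.16, so the upward calls were a few enzymes and not the whole pathway. They were Hk2, Pfkp, Pfkfb2, Pfkfb3 and Eno1, and the genes below 0 were Ldha, lactate dehydrogenase A, and Bsg, basigin, which carries lactate transporters to the membrane. Under plain read totals 7 members were above 0 and 0 below, so the calls of Ldha and Bsg were lost under that scaling. Pfkfb2, a bifunctional enzyme that sets the level of the main activator of phosphofructokinase, had 60.3 and 46.5 CPM in rods at P7 and 484 and 446 CPM at P30, against 55.7 and 81.5 CPM in cones at P7 and 139.6 and 203 CPM at P30. Both types rose, rods by 1.81 log2 units more (± 0.36, adjusted p = 0.0051). Pfkp, the platelet-type phosphofructokinase, rose from 93.3 and 68.8 to 599.6 and 523 CPM in rods and from 78.8 and 60.7 to 184 and 108 CPM in cones (difference 1.77 ± 0.33). Pfkfb3, of the same family as Pfkfb2, had no reads in rods at P7 and 8.71 and 9.29 CPM at P30, which is at least 287-fold higher against 3 reads over both P7 libraries. Cones held 4.7 and 0.901 CPM of Pfkfb3 at P7 and 7.37 and 1.65 CPM at P30. Hk1, the housekeeping hexokinase, had 281 and 343 CPM in rods at P7, 363 and 399 CPM at P30, 224 and 142 CPM in cones at P7 and 335 and 359.6 CPM at P30. Its difference of -0.66 ± 0.33 was not called (adjusted p = 0.22). Pfkfb2 and Pfkp lost their calls when only the 8 libraries entered the fit, and Pfkfb3 lost its call with the 12 rod and cone libraries alone. Exons of Pfkfb2 overlap Yod1 and those of Pfkp overlap Pitrm1 on the opposite strand, and whether reads were counted by strand is not given.

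Gckr, the regulator that holds hexokinases of the glucokinase type inactive, was among the largest rises seen in rods only. It had 0.562 and 0 CPM in rods at P7, 17.6 and 13.5 CPM at P13 and 156 and 172 CPM at P30, while cones had 431 and 389 CPM at P7 and 610.0 and 611 CPM at P30. The rod rise of 11.32 ± 1.22 against 0.58 ± 1.22 in cones gave a difference of 10.74 ± 1.72 (adjusted p = 0.0014), a call lost when only the 8 libraries entered the fit. Its size rests on 1 rod library at P7 without reads: the difference was 13.88 without the first rod library at P7, 7.60 without the second, and 6.47 on the log2(CPM + 1) scale. As with Hk2, the rod level was far under the cone level at P7 and moved toward it.

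Among the genes of light signalling, the calcium sensors of guanylate cyclase rose in rods. GCAP proteins, encoded by Guca1a and Guca1b, sense the fall in calcium after a flash and restart the cyclase. Guca1b (chromosome 17, 47385393 to 47392967, plus strand) had 7.8 and 10.4 CPM in rods at P7, 676 and 696 CPM at P13 and 2271 and 2274 CPM at P30. In cones it had 169.9 and 240.2 CPM, 228 and 288 CPM and 358 and 426 CPM at those ages. The order of the types thus turned over: rods were below cones at P7 and above them at P13 and P30 (difference 7.03 ± 0.69, adjusted p = 1.8e-05). Guca1a (chromosome 17, 47394558 to 47400584, minus strand) had 2.77 and 0 CPM in rods at P7, 24.2 and 16.1 CPM at P13 and 627 and 633 CPM at P30, and 1153 and 1004 CPM in cones at P7 and 1465 and 1140.5 CPM at P30. Rods rose by 12.11 ± 1.96, cones changed by 0.26 ± 1.96, and the difference was 11.85 ± 2.78 (adjusted p = 0.014). The size of that difference rests on 1 rod library at P7 without reads, and its call was lost with the 8 or the 12 libraries alone, with library weights, and without the first cone library at P7. At P30 rods held 48.4% of the cone level of Guca1a and 580.2% of the cone level of Guca1b.

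Of 22 rod genes, 2 were above 0 (Guca1b and Mef2c) and 1 below (Rom1), where 6.04% and 4.57% of all genes were. Rod genes rose in 9 cases in rods and fell in 0, where 10.7% and 9.15% of all genes did. In cones 7 rose and 1 fell, where 3.19% and 7.28% did. Gnat1, the rod transducin, rose in rods from 108 and 139.6 to 6420.3 and 7463 CPM and in the cone libraries from 6.19 and 4.04 to 273 and 319 CPM. Its difference of -0.06 ± 0.46 was not called, and the cone libraries held 4.14% and 4.27% of the rod level at the 2 ages. Mef2c, a transcription factor, went from 0.221 and 4.98 CPM to 346 and 349.7 CPM in rods, with most of the rise after P13 (13 and 6.87 CPM). In cones it had 33.3 and 11.9 CPM at P7 and 5.61 and 15.3 CPM at P30, and the difference was 9.45 ± 1.43 (adjusted p = 8.9e-04). Rom1, a structural protein of the disc rim, had 5489 and 5187 CPM in rods at P7 and 4945 and 6522 CPM at P30, and rose from 894 and 858 to 1799.7 and 2086 CPM in cones (difference -1.06 ± 0.29, called in 3 of the 8 fits without 1 library).

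Of 17 cone genes, 4 were above 0 (Gnat2, Pde6c, Guca1a and Sall3) and 2 below (Gngt2 and Gnb3), against 6.04% and 4.57% of all genes. In rods 10 of the 17 rose and 5 fell, where 10.7% and 9.15% of all genes did. In cones 2 rose and 0 fell, where 3.19% and 7.28% did. Gngt2, the gamma subunit of cone transducin, was 1 of the 5 cone genes that fell in rods. It had 319 and 265 CPM in rods at P7, 7.84 and 22 CPM at P13 and 9.33 and 3.74 CPM at P30, and 1364 and 1374 CPM in cones at P7 and 3147 and 2397 CPM at P30. Rods held 21.3% of the cone level at P7 and 0.236% at P30, a fall of 44.7 times, and the difference was -6.62 ± 0.59 (adjusted p = 6.8e-06). Gnat2, the cone transducin alpha subunit, went the other way at a far lower level. Rod libraries had 0.0201 and 0 CPM at P7 and 18.2 and 14.1 CPM at P30, beside 1949.7 and 2144 CPM in cones at P7 and 6844 and 6978 CPM at P30. Pde6c, the cone phosphodiesterase, had 0.602 and 0.0219 CPM in rods at P7 and 16.9 and 18.8 CPM at P30 against 7598 and 7751 CPM in cones at P30. Differences were 8.40 ± 0.77 for Gnat2 and 6.01 ± 1.35 for Pde6c, the latter lost with the 8 or the 12 libraries alone. At P30 all 7 cone genes used to check identity lay between 0.197% and 0.286% of their cone level in the rod libraries, a nearly constant share, and the part of cone RNA in these rises was not tested.

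Among 26 genes shared by rods and cones, 5 were above 0 (Aipl1, Guca1a, Gucy2f, Abca4 and Rgs9bp) and 1 was below (Rbp3), against 6.04% and 4.57% of all genes. The Gucy2f call was lost in each of the 8 fits without 1 library. Rgs9bp, which anchors the complex that shuts off transducin, rose from 263 and 115 to 2419 and 2339.6 CPM in rods and from 278 and 382 to 906 and 928 CPM in cones. Rods were above cones at P30, while the types were not called apart at P7 (difference 2.28 ± 0.39, adjusted p = 0.002). Among 33 outer segment and cilium genes, 2 were above 0 (Bbs2 and Kif17) and 2 below (Cdhr1 and Rom1), close to the shares over all genes. Kif17 reached at most 3.01 CPM. Its call was lost with the 8 or the 12 libraries alone and on the log2(CPM + 1) scale. Cdhr1, a cadherin at the edge of newly formed discs, fell in rods from 2733 and 2529 to 1119 and 1056 CPM, and cones had 2422 and 2604 CPM at P7 and 2377 and 2878 CPM at P30 (difference -1.33 ± 0.23). Bbs2, a subunit of the BBSome that carries membrane proteins in cilia, rose in rods from 116 and 103 to 307 and 318 CPM with 82.3 and 108 CPM in cones at P7 and 127 and 107 CPM at P30 (difference 1.21 ± 0.25). All of Rgs9bp, Cdhr1 and Bbs2 lost the call when only the 8 libraries entered the fit, and Cdhr1 also under plain read totals.

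At the synaptic terminal, the difference was called below 0 for the complexins Cplx2 and Cplx3, above 0 for Cplx1, and not for Cplx4. Cplx4, the other complexin of ribbon synapses, rose in both types: rods went from 257 and 184 to 1014 and 1127 CPM and cones from 124 and 86.6 to 673 and 701 CPM. Its difference of -0.43 ± 0.40 was not called (adjusted p = 0.53), with a sign that turned under plain read totals. Cplx2, a complexin of conventional synapses, had 200.02 and 311 CPM in rods at P7, 29.5 and 7.07 CPM at P13 and 0.611 and 1.19 CPM at P30. In cones it had 122 and 76.8 CPM at P7 and 36.2 and 22.4 CPM at P30, a change of -1.77 ± 0.69 that was not called (adjusted p = 0.1). The difference was -6.41 ± 0.97 (adjusted p = 9.0e-04), and rods were below cones at P30, while the types were not called apart at P7. Cplx1, the second conventional complexin, had 0.0401 and 0.0219 CPM in rods at P7, 11.4 and 4.78 CPM at P30, 25 and 36.6 CPM in cones at P7 and 4.28 and 12.9 CPM at P30. Its difference of 9.66 ± 2.15 (adjusted p = 0.01) was lost with the 12 rod and cone libraries alone, and at P30 the types overlapped.

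Of 49 ribbon synapse and vesicle release genes, 8 were above 0 (among them Cplx1, Rims2, Rims3, Syt3, Sv2c, Cacna1f and Dnm1) and 3 below (Cplx2, Cplx3 and Snap25), against 6.04% and 4.57% of all genes. In rods 16 of the 49 rose and 10 fell, where 10.7% and 9.15% of all genes did. In cones 4 rose and 2 fell, where 3.19% and 7.28% did. The list median was 0.32, near the 0.38 of all genes. The 8 genes above 0 became 5 without the first rod library at P7 or at P30, and 3 without the first cone library at P7. They became 3 with the 8 libraries alone, 2 with the 12 or at a mean log2 CPM of at least 4, and 16 under plain read totals.

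Of 45 neurexins and other trans-synaptic adhesion genes, 6 were below 0 (Nrxn3, Clstn1, Clstn3, Tenm3, Tenm4 and Adgrl2) and 2 above (among them Tenm2), against 4.57% and 6.04% of all genes. In rods 3 rose and 12 fell, where 10.7% and 9.15% of all genes did. In cones 2 rose and 4 fell, where 3.19% and 7.28% did. Under plain read totals the counts were 4 below and 6 above. Tenm2, a teneurin that reached at most 10.5 CPM in these libraries, had 0.12 and 0.0438 CPM in rods at P7, 1.9 and 0.0929 CPM at P30, 8.33 and 2.04 CPM in cones at P7 and no reads in cones at P30. Nrxn2 had 0.0602 and 0.614 CPM in rods at P7 and 1.83 and 0.558 CPM at P30 and 3.8 and 0.523 CPM in cones at P7 and 0.44 and 1.18 CPM at P30, and its difference of 3.28 ± 2.30 was not called. The rod values of Nrxn2 at P30 were no lower than its lowest value at P7.

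Of 50 guidance and adhesion molecules, 6 were below 0 (Jam2, Cadm1, Cadm3, Cdh2, Unc5c and Unc5d) and 3 above (Sema6d, Robo2 and Ntn4), against 4.57% and 6.04% of all genes. In rods 2 rose and 9 fell, where 10.7% and 9.15% of all genes did. In cones 0 rose and 11 fell, where 3.19% and 7.28% did. Cadm3, an immunoglobulin adhesion molecule of axons, fell in rods from 52.9 and 86.3 to 6.77 and 5.99 CPM, and cones had 218 and 165 CPM at P7 and 119 and 124 CPM at P30 (difference -2.77 ± 0.49, adjusted p = 0.0025). Its exons overlap those of Ackr1 on the same strand. Unc5d, a netrin receptor, fell in rods from 11.1 and 7.17 to 0.385 and 0.836 CPM, with 9.22 and 7.3 CPM in cones at P7 and 5 and 16.3 CPM at P30. That difference of -4.09 ± 0.75 was lost with the 8 or the 12 libraries alone. Under plain read totals, 2 members of the list were below 0 and 7 above.

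Of 31 GABA, glycine and glutamate receptor genes, 6 were above 0 (among them Gabra2, Gabrb2, Gria4, Grin2b and Grm8) and 1 was below, against 6.04% and 4.57% of all genes. Of the 31, voom called 3, where it called 1698 of all 13405 genes. Grm8 was called in 1 of the 8 fits without 1 library and Gabrb2 in 2, and Gria4, Grm8 and Gabra2 lost their calls with the 8 or the 12 libraries alone. Most were of low level, as Gria4 shows with no reads in rods at P7, 0.996 and 2.55 CPM at P30, 6.76 and 1.57 CPM in cones at P7 and 3.32 and 0 CPM at P30. Among 35 channel and pump genes 2 were above 0 (among them Kcnj9) and 1 below (Atp1b2), against 6.04% and 4.57% of all genes. Atp1b2, a subunit of the sodium pump, fell in rods from 2308 and 1745 to 969 and 719 CPM, with 2883 and 3466 CPM in cones at P7 and 3752 and 4114 CPM at P30 (difference -1.58 ± 0.34). Atp1b2 lost its call with the 8 or the 12 libraries alone and under plain read totals.

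Among the genes that changed in opposite directions, many lay near the floor of detection. Of the 55 that rose in rods and fell in cones, 46 had a mean log2 CPM under 0 over the 8 libraries. That is the range in which the median difference over all genes was 4.05, so the count is read beside that background. The number of opposite genes called was 11 when the test was limited to genes with a mean log2 CPM of at least 4. It was 12 without the first cone library at P7, 33 without the second, and 130 without the second cone library at P30.

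Grip1 and Fmn1 had reads in all 8 libraries. Grip1, a scaffold protein that binds AMPA receptors, had 7.88 and 5.44 CPM in rods at P7 and 54 and 61.9 CPM at P30, and 123 and 123 CPM in cones at P7 and 30 and 54.5 CPM at P30. Cones were far above rods at P7, and the ranges met at P30 (difference 4.75 ± 0.55, adjusted p = 8.4e-05). Fmn1, a formin that nucleates actin, rose in rods from 1.26 and 0.965 to 11.9 and 7.23 CPM and fell in cones from 88.2 and 92 to 26.9 and 51.9 CPM (difference 4.33 ± 0.52). Ptpru, a receptor tyrosine phosphatase, rose in rods from 0.642 and 3.77 to 74.6 and 45.9 CPM and fell in cones from 2.22 and 2.92 CPM to no reads, which is at least 50.5-fold lower against 3 reads over both libraries. Pak7, a p21-activated kinase, rose in rods from 4.09 and 6.2 to 134 and 85.5 CPM and had 3.09 and 3.23 CPM in cones at P7 and 0 and 1.18 CPM at P30. The Pak7 call was lost with the 8 or the 12 libraries alone.

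In the other direction, Tenm4, a teneurin of neuronal connections, fell in rods from 53.8 and 34.4 to 0.611 and 0.372 CPM and rose in cones from 35.4 and 33.3 to 69.1 and 73.6 CPM (difference -7.53 ± 0.47, adjusted p = 6.8e-07). Rods and cones overlapped at P7 for this gene, and at P13 no read was found in either rod library. Stmn3, a stathmin that acts on microtubules, had 43.1 and 44.7 CPM in rods at P7, 11.8 and 9.67 CPM at P30, 39.1 and 31.2 CPM in cones at P7 and 70.8 and 81.5 CPM at P30 (difference -3.16 ± 0.29). Gem, a small GTPase that inhibits voltage-gated calcium channels, went from 15.3 and 4.34 to 1.47 and 1.08 CPM in rods and from 25.3 and 19.8 to 142 and 133 CPM in cones (difference -5.31 ± 0.75). Nipal2 had 6.82 and 4.74 CPM in rods at P7 and no reads at P30, at least 189-fold lower, and rose in cones from 9.5 and 14.7 to 78.8 and 48.5 CPM. For these 4 genes P13 lay between the end points in cones, except that Tenm4 had a P13 library within its P30 range.

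**Figure D3:**
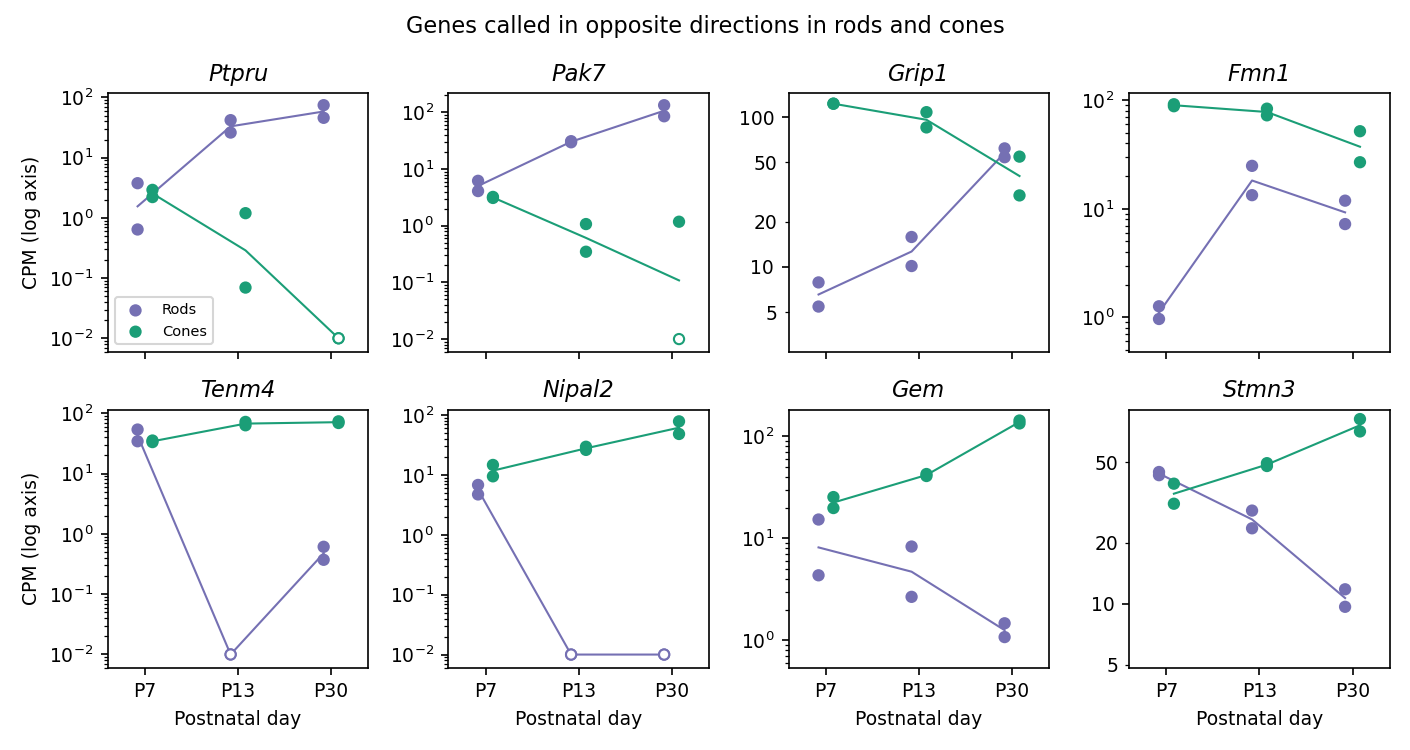
CPM (log axis) at P7, P13 and P30 in rods (purple) and cones (green) for 8 genes called with opposite changes, 1 point a library, open points at 0.01 CPM for libraries with no reads, lines through geometric means. The upper 4 genes rise in rods and fall in cones, and the lower 4 fall in rods and rise in cones. Ptpru in cones at P30 and Nipal2 in rods at P30 have no reads.

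Genes that rose in rods only included Guca1b and Gckr, above, with Gpsm2 and Mfge8. Mfge8, a secreted protein that bridges phosphatidylserine on membranes to integrins of phagocytes, had 3.41 and 5.28 CPM in rods at P7, 29.2 and 29.9 CPM at P13 and 124 and 132 CPM at P30. Cones had 565 and 626 CPM at P7 and 345 and 419 CPM at P30, above rods at both ages (difference 5.55 ± 0.52, adjusted p = 1.1e-05). Gpsm2, a regulator of G protein signalling and spindle position, had 0.401 and 2.3 CPM in rods at P7 and 565 and 616 CPM at P30, against 2.76 and 3.57 CPM in cones at P7 and 5.93 and 6.48 CPM at P30 (difference 8.27 ± 0.73). Its exons overlap those of Clcc1 on the opposite strand.

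Apart from the 558 remaining genes, those that fell in rods only were the largest class, with 371 members. Fabp7, a fatty acid binding protein of immature neural cells and glia, had 428 and 290.1 CPM in rods at P7, 179.9 and 219 CPM at P13 and 4.28 and 1.04 CPM at P30, and 205 and 289 CPM in cones at P7 and 181 and 208 CPM at P30 (difference -7.05 ± 1.40). Tmsb10, a thymosin that binds actin monomers, fell in rods from 41.3 and 55.7 to 1.58 and 1.15 CPM, and cones had 103 and 80.9 CPM at P7 and 154 and 175 CPM at P30 (difference -5.99 ± 0.49). Cltb, a clathrin light chain, fell in rods from 87.8 and 115 to 4.3 and 0.911 CPM beside 505 and 511 CPM in cones at P7 and 525 and 468 CPM at P30. Vat1l fell in rods from 95.5 and 108 to 4.98 and 0.558 CPM, where cones had 14.2 and 5.24 CPM and 5.41 and 14.3 CPM. Differences were -5.62 ± 1.16 for Cltb, lost with the 12 libraries alone, and -5.95 ± 1.15 for Vat1l, lost with the 8 or the 12.

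Mgarp, a mitochondrial protein, was called in cones only, where it rose from 68.1 and 50.7 to 809 and 717 CPM. Rods had 365 and 279.9 CPM at P7, 1036 and 1103 CPM at P13 and 411 and 623 CPM at P30, so their level was highest at P13. The rod change of 0.66 from P7 to P30 had an adjusted p of 0.026. It was not called because it was under 1 log2 unit. Cones were below rods at P7, and at P30 the types were within 1 log2 unit of each other and not called apart (difference -3.03 ± 0.29, adjusted p = 1.2e-05). Mrps33, a protein of the mitochondrial ribosome, rose in cones from 13.1 and 16.5 to 41 and 44.6 CPM. Rods had 47.6 and 46.6 CPM at P7 and 19.9 and 28.9 CPM at P30 (difference -2.51 ± 0.38). The rod change of -0.97 (adjusted p = 0.016) was likewise under the size limit. Calu, a calcium-binding protein of the secretory pathway, was listed at 388 and 455 CPM in cones at P7 and 2388 and 2696 CPM at P30, with 66.1 and 66.5 CPM in rods at P7 and 44.6 and 31.5 CPM at P30 (difference -3.42 ± 0.30). Exons of Calu overlap those of Opn1sw, the short-wavelength cone opsin, on the opposite strand, and Opn1sw had 3748 and 3944 CPM in cones at P7 and 10848 and 9818 CPM at P30. Reads of the 2 genes cannot be told apart there unless strand was used, so the Calu value is uncertain.

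Gigyf2, a repressor of translation, had 95.5 and 89.2 CPM in cones at P7 and 44.4 and 36.4 CPM at P30. Rods had 72.4 and 66.5 CPM at P7 and 139 and 127 CPM at P30 (difference 2.13 ± 0.24, adjusted p = 7.0e-05). The rod change of 0.94 (adjusted p = 9.1e-04) was opposite in sign and just under 1 log2 unit, so it was not called. Rasgef1b, an exchange factor for Ras-family GTPases, fell in cones from 93.5 and 99.5 to 20.3 and 32.1 CPM, with 36.1 and 34.2 CPM in rods at P7 and 61.1 and 32 CPM at P30 (difference 2.25 ± 0.44, lost when only the 8 libraries entered the fit). Il11ra1, a receptor of interleukin 11, fell in cones from 68.1 and 77.4 to 33.4 and 31.2 CPM with 44.8 and 41.2 CPM in rods at P7 and 55.6 and 57.1 CPM at P30, and overlaps Ccl27a on the opposite strand. Arhgap28, a GTPase-activating protein, fell in cones from 8.39 and 9.62 CPM to no reads, at least 177-fold lower, and its call was lost on the log2(CPM + 1) scale.

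Many nuclear genes of the respiratory chain and ATP synthase fell in rods, and few changed in cones. Of 49 such genes, 34 fell and 0 rose in rods, where 9.15% and 10.7% of all genes did. In cones 1 fell and 1 rose, where 7.28% and 3.19% did. At a mean log2 CPM of 6 to 8, 243 of 2557 tested genes had a difference below 0, and over 8 it was 139 of 588. Cox8a, Ndufa1, Cox7c and Cox6b1, described next, lay in these 2 classes. In the list the difference was below 0 for 27 of 49 and above 0 for 0. Of all genes 4.57% were below 0, and the list median was -1.49. Under plain read totals 17 were below 0 and 1 above, with a median of -0.82 beside 1.03 for all genes, and without the first cone library at P7 the 27 became 16. With the 8 libraries alone 12 were called below 0, and with the 12 rod and cone libraries 10. Cox8a, a subunit of cytochrome c oxidase, had 745 and 767 CPM in rods at P7, 396 and 766 CPM at P13 and 94.8 and 152 CPM at P30, and 560.4 and 569 CPM in cones at P7 and 731 and 531 CPM at P30 (difference -2.80 ± 0.38, adjusted p = 3.4e-04). Ndufa1, a subunit of complex I, had 847 and 796 CPM in rods at P7, 926 and 1738 CPM at P13 and 110.5 and 246 CPM at P30. Cones had 345 and 417 CPM at P7 and 541 and 400.0 CPM at P30 (difference -2.61 ± 0.43). Cox7c and Cox6b1, further oxidase subunits, had differences of -2.68 ± 0.37 and -2.28 ± 0.41. Rods were below cones at P30 for these 4 genes, and at P7 Ndufa1 was called above cones while the other three were not called apart.

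Cytosolic ribosomal protein genes fell in rods as well. Of 49, 45 fell and 0 rose in rods, where 9.15% of all genes fell, and 3 fell and 0 rose in cones, where 7.28% fell. Of all tested genes, 243 of 2557 with a mean log2 CPM of 6 to 8 had a difference below 0. Over 8 it was 139 of 588. Rpl18 and Rpl30, described below, lay in these classes. In the list the difference was below 0 for 18, against 4.57% of all genes, and above 0 for 0 (median -1.15). Under plain read totals 6 were below 0. The 18 became 10 without the first rod library at P7 or the first cone library at P30, 6 without the first rod library at P30, 31 without the second, and 7 and 11 without the first and the second cone library at P7. With the 8 libraries alone 4 were called below 0, and with the 12 rod and cone libraries 3. Rpl30 had 857 and 728 CPM in rods at P7, 838 and 1624 CPM at P13 and 213 and 362 CPM at P30. Cones had 274 and 324 CPM at P7 and 482 and 421 CPM at P30 (difference -2.10 ± 0.38). Rpl18, whose exons overlap Sphk2 on the opposite strand, fell in rods from 241 and 293 to 35.9 and 44.5 CPM with 149 and 116 CPM in cones at P7 and 107 and 76.3 CPM at P30 (difference -2.19 ± 0.43).

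Transcript length moved with these falls. Among genes with a mean log2 CPM of at least 4, the median rod change was -0.93 for 243 genes whose longest annotated transcript was under 1 kb and 0.29 for 509 genes over 8 kb. The median cone change was 0.15 and 0.02 in the same classes. The difference was below 0 for 32.5% of genes under 1 kb, 12.6% of those from 1 to 2 kb and 2.75% of those over 8 kb, and for 23.9% of 159 genes under 1 kb that were neither ribosomal nor respiratory. Of 21 respiratory genes under 1 kb, 18 were below 0, and of 28 of 1 kb or more, 9 were, where 12.6% or fewer of all genes in the classes from 1 kb upward were. The part of transcript length in the fall of both lists was not tested.

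**Figure D4:**
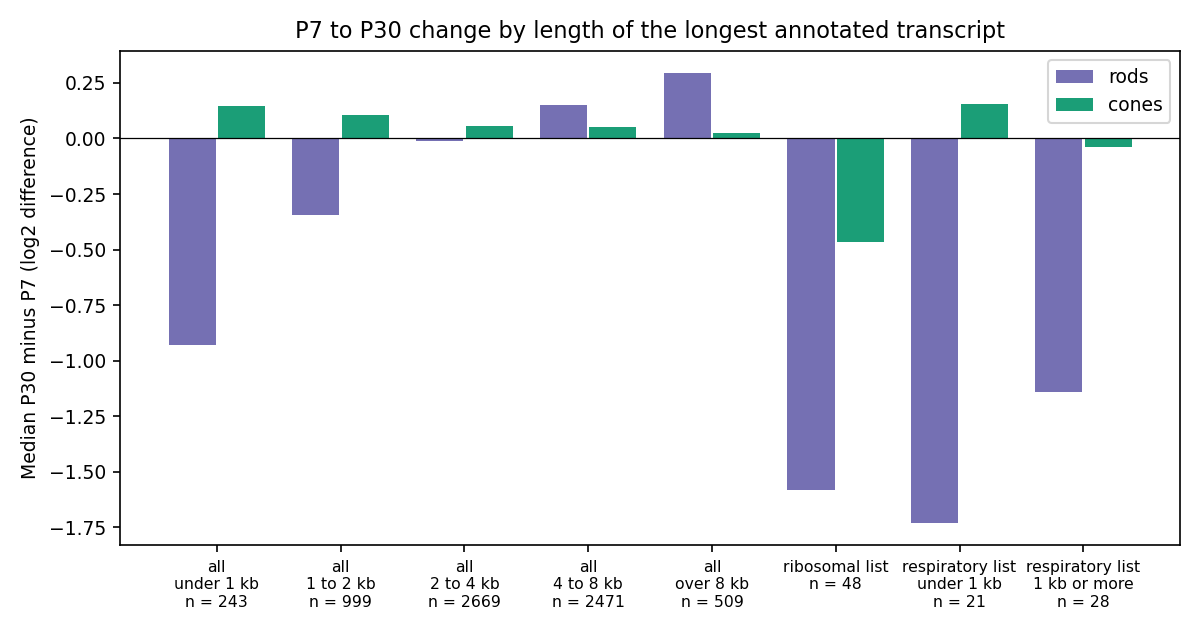
Median P7 to P30 change (vertical axis, log2 difference) in rods (purple) and cones (green) by the length of the longest annotated transcript, for all genes with a mean log2 CPM of at least 4 and for the ribosomal and respiratory lists, with the number of genes under each pair of bars. In rods the median climbs from -0.93 under 1 kb to 0.29 over 8 kb, while cone medians of the length classes stay between 0.02 and 0.15.

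Transcripts of the mitochondrial genome rose in both types, and 5 of 10 rose more in cones. Of 10 tested, 6 rose in rods, against 10.7% of all genes, and 9 rose in cones, against 3.19%. The 5 with a difference below 0 were mt-Nd1, mt-Nd4, mt-Nd6, mt-Co1 and mt-Cytb, and the number was 3 under plain read totals or without the first cone library at P30, and 0 with the 8 or the 12 libraries alone. mt-Nd4, a subunit of complex I, had 4387 and 3269 CPM in rods at P7, 18766 and 10925 CPM at P30, 7942 and 7704 CPM in cones at P7 and 131530.0 and 92411 CPM at P30 (difference -1.90 ± 0.40). mt-Co1, a subunit of the oxidase, had 4166 and 3168 CPM in rods at P7 and 8252 and 5486 CPM at P30 and 6119.5 and 5009 CPM in cones at P7 and 49391 and 32743 CPM at P30 (difference -1.97 ± 0.41). Both calls were lost with the 8 or the 12 libraries alone. In rods the nuclear and the mitochondrial genes of the chain moved in opposite directions from P7 to P30, with 34 of 49 nuclear genes down and 6 of 10 mitochondrial genes up.

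**Figure D5:**
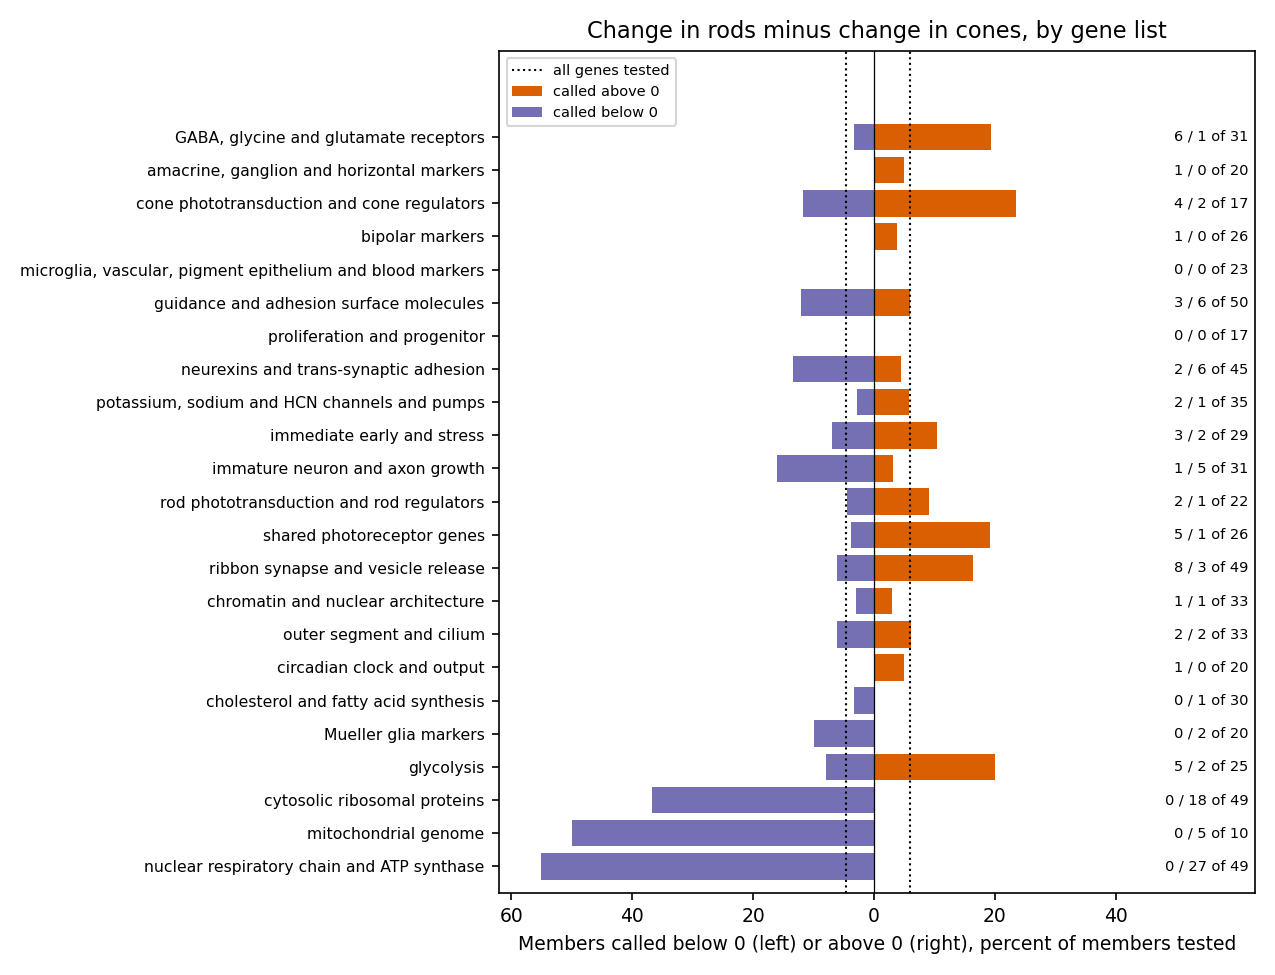
Percent of tested members of each of 23 gene lists called with a difference above 0 (orange, right) or below 0 (purple, left), ordered by list median. Dotted lines mark the shares over all 13405 genes, 6.04% above and 4.57% below, and the numbers at the right give the counts above and below. The respiratory, mitochondrial and ribosomal lists have members called below 0 and none above.

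Of 31 genes of immature neurons and axon growth, 12 fell and 1 rose in rods, and 10 fell and 1 rose in cones, where 9.15% of all genes fell in rods and 7.28% in cones. The difference was below 0 for 5 (Stmn1, Stmn3, Tuba1a, Marcksl1 and Dpysl3) and above 0 for 1 (Tubb5), and the 5 became 2 without the first cone library at P7 and 3 without the first cone library at P30. With the 8 libraries alone 3 were called below 0, and with the 12 rod and cone libraries 2. Under plain read totals 3 were below 0 and 7 above. The main shares over all genes were 4.57% below 0 and 6.04% above. Dpysl3, a collapsin response mediator of growth cones, fell in rods from 1861 and 1811 to 758 and 639 CPM and had 1066 and 1152 CPM in cones at P7 and 1429 and 1536 CPM at P30 (difference -1.82 ± 0.32, adjusted p = 0.0024). Of 17 proliferation and progenitor genes, 0 were called for the difference by limma, where 10.6% of all genes were. By voom 0 were called, where 1698 of 13405 genes were. In limma 2 had an unadjusted p under 0.05, where 3527 of 13405 genes had. Of 33 chromatin genes, 1 was above 0 (Cbx5) and 1 below (Hmgn3), against 6.04% and 4.57% of all genes. Cbx5, the heterochromatin protein HP1 alpha, rose in rods from 34.6 and 42.6 to 116 and 95.4 CPM with 125 and 155 CPM in cones at P7 and 132 and 151 CPM at P30 (difference 1.43 ± 0.28). Hmgn3, a nucleosome-binding protein, fell in rods from 123 and 105 to 15.1 and 28 CPM with 165 and 211 CPM in cones at P7 and 196 and 201 CPM at P30 (difference -2.55 ± 0.33). Neither cone change was called.

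Among 30 genes of cholesterol and fatty acid synthesis 1 was called (3.33%), against 10.6% of all genes. This was Elovl2, an elongase for long polyunsaturated fatty acids of outer segment membranes. It fell in rods from 277 and 294 to 65.4 and 84.1 CPM, with 347 and 517 CPM in cones at P7 and 424 and 460.1 CPM at P30 (difference -2.01 ± 0.42). Among 20 clock genes 1 was called (5%), against 10.6% of all genes. This was Drd4, a dopamine receptor with a daily rhythm in photoreceptors. Drd4 had 2.63 and 1.71 CPM in rods at P7, 564 and 749 CPM at P13 and 297 and 306 CPM at P30. Cones had 15.5 and 4.52 CPM at P7 and 75.8 and 149 CPM at P30, and the difference of 3.48 ± 0.86 was called in 4 of the 8 fits without 1 library.

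Genes of handling and of other cells were followed beside these results. Of 29 immediate early and stress genes, 3 were above 0 (Egr1, Egr2 and Hspa1a) and 2 below (Jun and Dnajb1), against 6.04% and 4.57% of all genes. Their summed level was 1102 to 1234 CPM in rods at P7, 888 to 965 CPM in rods at P30, 1772 to 3187 CPM in cones at P7 and 1607 to 1638 CPM in cones at P30. Jun, a subunit of AP-1, fell in rods from 190.3 and 183 to 30.3 and 24.2 CPM, with 52.5 and 51.5 CPM in cones at P7 and 78.1 and 67.9 CPM at P30 (difference -3.27 ± 0.48). Egr1 had 775 and 1876 CPM in cones at P7 and 35.9 and 165 CPM at P30, with the 2 P7 libraries far apart, and was called in 2 of the 8 fits without 1 library.

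Müller glia markers summed to 297 to 369 CPM in rods at P7, 377 to 447 CPM in rods at P30, 431 to 540 CPM in cones at P7 and 1267 to 1340 CPM in cones at P30, with 2, 1, 0 and 1 of 20 members at 0. Of the 20, 2 were called below 0 (Glul and Dbi) and 0 above, against 4.57% and 6.04% of all genes. Glul, glutamine synthetase, rose in cones from 46.9 and 48.3 to 299 and 339 CPM with 91.8 and 72.8 CPM in rods at P7 and 159 and 81.7 CPM at P30 (difference -2.26 ± 0.43), and the part of glial RNA in that rise was not tested. Bipolar markers summed to 2467 to 2512, 1410 to 1432, 1739 to 2147 and 1675 to 2065 CPM in the same order, with 8, 3, 0 and 4 of 27 members at 0. Grm6, a defining receptor of ON-bipolars, had no reads in rods at either age, but most of the 27 members had reads there. In cones at P7 all 27 had reads. The summed bipolar markers were highest in rods at P7. Of 26 bipolar markers tested, 1 was called (Cabp5), against 10.6% of all genes. Cones had Cabp5 at 205 and 217 CPM at P7 and 376 and 205 CPM at P30 and rods at 0 CPM and 1.63 and 0.632 CPM. Amacrine, ganglion and horizontal markers summed to no more than 259.97 CPM in any library. Of these, 1 of 20 tested was called (Gad2), against 10.6% of all genes. Markers of microglia, vessels, pigment epithelium and blood summed to 82.3 to 112 CPM in rods at P7 and 677 to 860 CPM in rods at P30. In cones they summed to 168 to 266 CPM at P7 and 575 to 601 CPM at P30. Of these, 0 of 23 were called for the difference by limma, against 10.6% of all genes. In limma 1 had an unadjusted p under 0.05, where 3527 of 13405 genes had. By voom 1 was called, where 1698 of 13405 genes were.

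Rods and cones at P13, which did not enter the contrast, show when the changes took place. For genes that rose in rods only, the median share of the log2 change reached by P13 was 52.2%, and 116 of 224 were nearer to P30 than to P7. For genes that fell in rods only it was 23.5%, and 91 of 371 were nearer to P30. In cones only, the median was 44.0% for 50 genes that rose, with 16 nearer to P30, and 25.1% for 93 genes that fell, with 21 nearer to P30. Guca1b is an early example, at 676 and 696 CPM in rods at P13, and Cox8a a late one, with 396 and 766 CPM in rods at P13 against 94.8 and 152 CPM at P30. These shares are descriptions, since the genes were chosen for their change from P7 to P30 and no test of timing was made.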

How the data were processed

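RNA from sorted rods and cones of the mouse retina was compared at P7 and P30, with 2 libraries a group. Per the submitters' processing notes, STAR, edgeR and the builds GRCm38 and mm10 were used. For the counter, its use of strand and the gene filter, the sources used here give nothing. The deposited table holds log2 CPM for 13812 genes and 22 libraries, with a small prior added before the log, so a gene without reads has -7.10 in every library. Once that prior was removed, 100.0% of values lay within 0.01 of whole reads, and these recovered reads gave depth, floors of 3 reads (counting error only) and an added alternative.

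Symbols and positions came from GENCODE M21, and 27 IDs without a symbol (0.109% of reads) were left out. Genes entered the test when both libraries of any group reached a log2 CPM of 0, so 13405 were kept and 380 dropped. limma 3.58.1 in R 4.3.3 was fitted to the deposited log2 values of all 22 libraries, with a coefficient per group, an intensity trend, 11 residual and 4.27 prior degrees of freedom. Calls needed a log2 difference of 1 or more in size and p under 0.05 after Benjamini-Hochberg adjustment across the tested genes. Adjusted p-values in the text come from this fit, and ± after a log2 value is its standard error. The pooled groups scattered unequally. Library weights, higher for less scatter, were 0.564, 0.242 and 0.817 for rods at P7, P13 and P30. They were 1.63, 0.763 and 0.367 for cones and 4.49, 2.22 and 1.27 for bipolars at those ages. For rod and cone bipolars at P13 they were 0.797 and 1.95. The fit was tested on simulated data of 13405 genes for this comparison. It recovered 57.0% of changes of 2 log2 units and 85.0% of changes of 3, with 5.96% of its calls false. There, 100 changes of each size were planted, only in genes with a mean log2 CPM over 3 in the 4 groups. Each gene was given the same spread in all groups. Recovery was thus not measured for genes of low level, and 408 of the 809 genes above 0 had a mean log2 CPM under 0.

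Named genes were Hk2, Nrxn3 and Cplx3, the 4 largest differences on the log2(CPM + 1) scale per class among genes called without each of the 8 libraries and with a mean log2 CPM of at least 5 in 1 of the 4 groups, up to 4 called members per list, and family members of the 3 genes. Some were left out. Members that complete a short count were named after their values were seen. The comparison, its genes and the 23 lists were chosen with earlier results of these data known. Alternatives covered the filter, the libraries in the fit, scaling, the log scale, the trend, library weights, a replicate block and leaving out each library. Results for a few genes are not reported here.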

Additional observations from a re-analysis of the deposited data

Results flagged for a closer look

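In 67 genes the change from P7 to P30 was called in opposite directions in rods and cones, with the difference between the types called as well. The 8 named among them differed by 13.68 (Ptpru), 9.50 (Pak7), 4.75 (Grip1), 4.33 (Fmn1), -7.53 (Tenm4), -11.99 (Nipal2), -5.31 (Gem) and -3.16 (Stmn3) log2 units, rods minus cones, by limma's test of the difference. Values of Ptpru and Nipal2 depend on the prior, since 1 group of each had no reads. That of Pak7 does too, since 1 cone library at P30 had none: it was 5.83 without the first cone library at P30, 13.17 without the second, and 5.65 on the log2(CPM + 1) scale.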

How the results depend on the processing

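Of 60 genes followed through the alternatives, 58 were called and 38 of these kept the call in all settings that gave a value. Hk2, Cplx3 and Nrxn3 kept theirs in each. Outside these 60, examples of calls lost with the 8 or the 12 libraries alone were Kif17, Sv2c, Robo2, Unc5c, Kcnj9, Gad2 and Marcksl1. Those of Egr2, Stmn1, Dbi and Cabp5 were lost with the 12. On the log2(CPM + 1) scale Kif17, Kcnj9, Egr2, Cabp5 and Gad2 were not called. The genes named per class had been chosen to keep their call without each library, so that part is no sign of stability. Hk1 turned to 0.0064 and Cplx4 to 0.24 under plain read totals, and neither was called in any setting. With the 8 libraries alone 652 genes were called (395 above 0, 257 below, 281 in rods only, 84 in cones only), and with the 12 rod and cone libraries 479 (262, 217, 224 and 48, with 24 opposite). Directions are the same in both by construction, since the group means do not change. Plain read totals gave 2342 (2110 above 0, 232 below, 135 opposite, 674 in cones only). Library weights gave 836 (457, 379, 34 opposite, 381 in rods only, 74 in cones only). The log2(CPM + 1) scale gave 1348 (657 above 0, 691 below, 40 opposite, 221 in cones only). On that scale more genes lay below 0 than above, the reverse of the main fit. Limited to a mean log2 CPM of at least 4, a setting chosen after seeing the data, the counts were 883, 315 above 0, 11 opposite and 91 in cones only. The cause of these shifts was not tested, other than the smaller number of libraries or genes. Leaving out 1 library gave 616 to 2032 genes called, 314 to 1379 above 0, 302 to 702 below, 12 to 130 opposite, 295 to 643 in rods only and 46 to 476 in cones only. The lowest number of genes called, above 0, below 0, opposite, in rods only and in cones only came without the first cone library at P7. With 1 library left in a group, that library is assumed to vary like the other groups. The highest number called, above 0, opposite and in cones only came without the second cone library at P30, and the highest below 0 and in rods only without the second rod library at P30. Genes in cones only numbered 87 without the first rod library at P7 and 81 without the first at P30. Replicate numbers were not treated as pairs, and the labels do not say whether they pair libraries. Deviations of same-numbered libraries correlated between -0.127 and 0.158. With 1 deviation a group, these values cannot tell whether same-numbered libraries share mice or sorts. A fit with the replicate block called 1444 genes (811 and 633) and changed no call of the 60 genes followed, while Gucy2f, Ntn4, Cdh2 and Gabrb2 lost theirs. Planned count tests with edgeR and DESeq2 were not run, since the table holds log2 values; voom on recovered reads, added after seeing the data, called 1698 (946 and 752). Genes of under 3 reads in a group carry no reliable fold at this depth.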
